A study of Mus musculus with 2 samples.

Results

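Complement is a cascade of proteins of innate immunity, and 8 of its genes are described here across the immune cells of mouse lungs: C1qa, C1qb and C1qc, which encode the 3 chains of the recognition molecule C1q; C3, Cfb and Cfp, which encode the central component, factor B and properdin; and C3ar1 and C5ar1, which encode the receptors of the C3a and C5a peptides. They were looked up by symbol among the 55401 genes of the count matrix, and all 8 were found. The matrix comes from droplet-based single-cell RNA sequencing, in which each captured transcript is counted once by its unique molecular identifier (UMI). By the labels, live CD45-positive cells, that is white blood cells, were sorted from digested lungs of Siah1a/2 KO mice and of WT mice, 1 sample each, both 7 weeks after the first dose of urethane, a lung carcinogen. Siah1a and Siah2 encode ubiquitin ligases; strain, age, number of mice and the deleted stretches are not given in the sources used here.

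The 2 libraries of the matrix are told apart by the last digit of the barcode, and no label ties a digit to a genotype. They are therefore called library 1 and library 2, no genotype was assigned from any gene's level, and no value below is a comparison of KO with WT. With 1 library of each kind there is no replicate check and no test. Intervals in brackets are exact, at 95%, and hold for the error of counting alone.

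Liver makes most of the complement that circulates in blood, while several components are also made locally by myeloid cells. C1q binds antibody complexes and dying cells and opens the classical pathway. Factor B joins C3b, the activated fragment of C3, to form the convertase of the alternative pathway, and properdin stabilises that convertase. C3a and C5a are released along the way and act through receptors on myeloid cells. C1q is a long-used marker of tissue macrophages.

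All 8 genes lie on the minus strand in GENCODE M21 (GRCm38). C1qb (ENSMUSG00000036905.8, chr4:136880129-136886187), C1qc (ENSMUSG00000036896.5, chr4:136889804-136893065) and C1qa (ENSMUSG00000036887.5, chr4:136895917-136898803) are neighbours. C3 (ENSMUSG00000024164.15) spans chr17:57203970-57228136 and Cfb (ENSMUSG00000090231.10) chr17:34856374-34862518. Cfp (ENSMUSG00000001128.7) lies at chrX:20925454-20931555, C3ar1 (ENSMUSG00000040552.8) at chr6:122847138-122856161 and C5ar1 (ENSMUSG00000049130.6) at chr7:16246743-16259540. Cfb shares 2246 exon bases with Gm20547, annotated as protein-coding on the same strand, so the level of Cfb is uncertain to the extent that shared reads were dropped or assigned elsewhere.

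Below, C1q levels are higher and C3 levels lower in macrophage-gated cells than in Ly6c2 monocytes, though C3 is not low in every macrophage state. The promoters of C1qb and C3 are shown for that contrast. Promoter sequences, 250 bases before the RefSeq start (GRCm38.p6), were matched for 6 of the 8 genes. C1qb is chr4:136886201-136886450 and C3 is chr17:57228137-57228386, each printed 5′ to 3′ on the minus strand, with motif matches in capitals:

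C1qb: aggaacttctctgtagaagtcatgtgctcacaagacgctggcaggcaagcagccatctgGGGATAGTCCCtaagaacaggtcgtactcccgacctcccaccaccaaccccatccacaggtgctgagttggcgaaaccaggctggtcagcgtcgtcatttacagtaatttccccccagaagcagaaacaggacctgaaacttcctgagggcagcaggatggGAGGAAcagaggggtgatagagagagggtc

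C3: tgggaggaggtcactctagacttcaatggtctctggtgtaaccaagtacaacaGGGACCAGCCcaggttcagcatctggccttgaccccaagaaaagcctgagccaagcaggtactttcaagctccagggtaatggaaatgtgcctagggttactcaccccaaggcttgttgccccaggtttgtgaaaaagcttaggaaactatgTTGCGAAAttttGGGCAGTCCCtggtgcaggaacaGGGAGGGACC

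The motifs searched, on both strands, were TGCTGAC (a Maf site), GAGGAA (a core of the myeloid factor PU.1), the kappaB motif (GGGA, any 4 bases, CC), TTCNNNGAA (a STAT site) and TTGCNNAA (C/EBP). Over 32851 promoters of this length, with those of 1 chromosome left out, they occurred in 3.81%, 23.3%, 17.6%, 7.02% and 9.56%. C1qb held 1 GAGGAA, 30 bases before the start, and 2 overlapping kappaB matches that form 1 capital run. C3 held 3 kappaB matches and 1 C/EBP match. Of the matched promoters not printed, that of C1qc held 1 GAGGAA and 1 kappaB match, and those of Cfp, C3ar1 and C5ar1 held no match. None of the matched promoters held the Maf letters, and a match of letters is a description of the sequence, not of binding.

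Library 1 held 8522 barcodes and library 2 held 6479, of which 8066 and 6113 passed the cell filter, with medians of 8661 and 7875 UMIs. 11 barcode sequences occurred in both libraries. Cells were put into types by UMI minimums of marker genes that include no complement gene. Macrophage-gated cells needed at least 5 UMIs of macrophage markers that include Fcgr1 and at least 20 of Apoe, with at most 2 of the Cd3 genes and 4 of the NK genes. There were 664 in library 1 and 441 in library 2, with medians of 11120 and 10454 UMIs. Other macrophage markers were present in them, such as Ms4a7 at 785 and 794 CPM (UMIs per 1000000 UMIs of the gate) and Trem2 at 323 and 352 CPM. Ly6c2 and Ccr2, which mark blood-derived monocytes, were present too, with Ly6c2 at 1108 and 1315 CPM, so the gate is a range and not a sharp type. Of its cells, 168 and 141 held 20 to 39 Apoe UMIs, and 155 and 104 monocyte-gated cells lay just below the limit at 10 to 19. Markers of resident alveolar macrophages, which the series' title concerns, were absent or sparse. Car4, Fabp1, Ear1 and Cidec had 0 UMIs in both libraries, and Marco had 5 and 0. Krt79 had 13 and 5 UMIs, and Siglecf had 55 and 69, in 0.63% and 0.97% of kept cells.

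C1q transcripts were concentrated in macrophage-gated cells. C1qa stood at 4921 CPM (interval 4873 to 4969) in library 1 and 4246 CPM (4190 to 4303) in library 2. C1qb stood at 4282 CPM (4238 to 4327) and 4325 CPM (4268 to 4382), and C1qc at 2744 CPM (2709 to 2780) and 2402 CPM (2360 to 2445). In all 3 genes the macrophage gate came first in both libraries, and its values did not overlap those of the next gate. That next gate was made of barcodes with T cell and macrophage markers together, 465 and 328 barcodes at medians of 20550 and 19882 UMIs, which were kept apart because doublets were not called. They held 30.0% and 36.8% of all C1qa UMIs, against 47.5% and 49.4% in macrophage-gated cells. A further 969 and 589 kept cells met no gate and are not described here. These ungated cells held 11.3% and 6.03% of C1qa UMIs and 19.5% and 17.7% of C3 UMIs.

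Monocytes carried less C1q. Monocytes gated on Ly6c2, Vcan and Chil3 held C1qa at 757 and 676 CPM and C1qb at 978 and 1130 CPM. Monocytes gated on Inhba and Thbs1, an inflammatory state, held C1qa at 162 and 192 CPM and C1qb at 285 and 353 CPM. Within these gates most C1q UMIs lay in a minority of cells: the median Ly6c2 monocyte held 1 and 1 UMIs of the 3 genes together, while the cell at the 90th percentile held 67.3 and 78. Non-classical monocytes stood at 1511 and 669 CPM of C1qa, but 65 of 250 and 59 of 116 of them held 20 or more Apoe UMIs. Those cells carried 88.3% and 88.2% of the gate's C1q UMIs. The remaining non-classical monocytes held 654 CPM (612 to 698) and 497 CPM (434 to 566) of C1q in sum.

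In cDC1, in cDC2, and in migratory dendritic and mast cells of library 2, most C1q UMIs lay in a handful of barcodes. Among cDC2, the 5 richest cells held 73.3% of the gate's C1q UMIs in library 1 and 84.7% in library 2. In library 2, 1 of 58 migratory dendritic cells held 93.9% of that gate's C1q UMIs, and 1 of 82 mast cells or basophils held 95.9%. In library 1 the 5 richest cells of those gates held 32.8% of 116 C1q UMIs and 64.5% of 107. Of 46 cDC1 in library 1, 5 held 94.3%.

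Lymphocytes, which are not known as a source of C1q, held it at low levels. In NK cells C1q in sum stood at 97.4 CPM in library 1 and 33.2 CPM in library 2, which is 0.815% and 0.303% of the macrophage level. Apoe, another macrophage transcript, stood in the same NK cells at 0.981% and 0.388% of its macrophage level. CD8 T cells held C1q at 1.23% and 0.685% and Apoe at 1.23% and 0.714% of those levels. In B cells these shares lay apart, at 1.03% and 0.961% for C1q, on 50 and 19 UMIs, and 6.71% and 5.92% for Apoe. The macrophage level of C1q was above the NK level by a log2 ratio of 6.94 (6.86 to 7.02) in library 1 and 8.37 (8.22 to 8.52) in library 2.

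The shares of cells with a UMI were less far apart than the levels. At least 1 C1q UMI was found in 87.0% and 79.8% of macrophage-gated cells, and in 62.5% and 26.1% of NK cells, whose medians were 10540 and 9245 UMIs. With every cell thinned to 3000 UMIs, these shares were 79.4% and 70.4% for macrophage-gated cells and 27.0% and 11.7% for NK cells. UMIs of all 3 C1q genes together were a sharper mark, in 68.8% and 60.8% of macrophage-gated cells against 3.69% and 0.69% of NK cells.

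**Figure D1:**
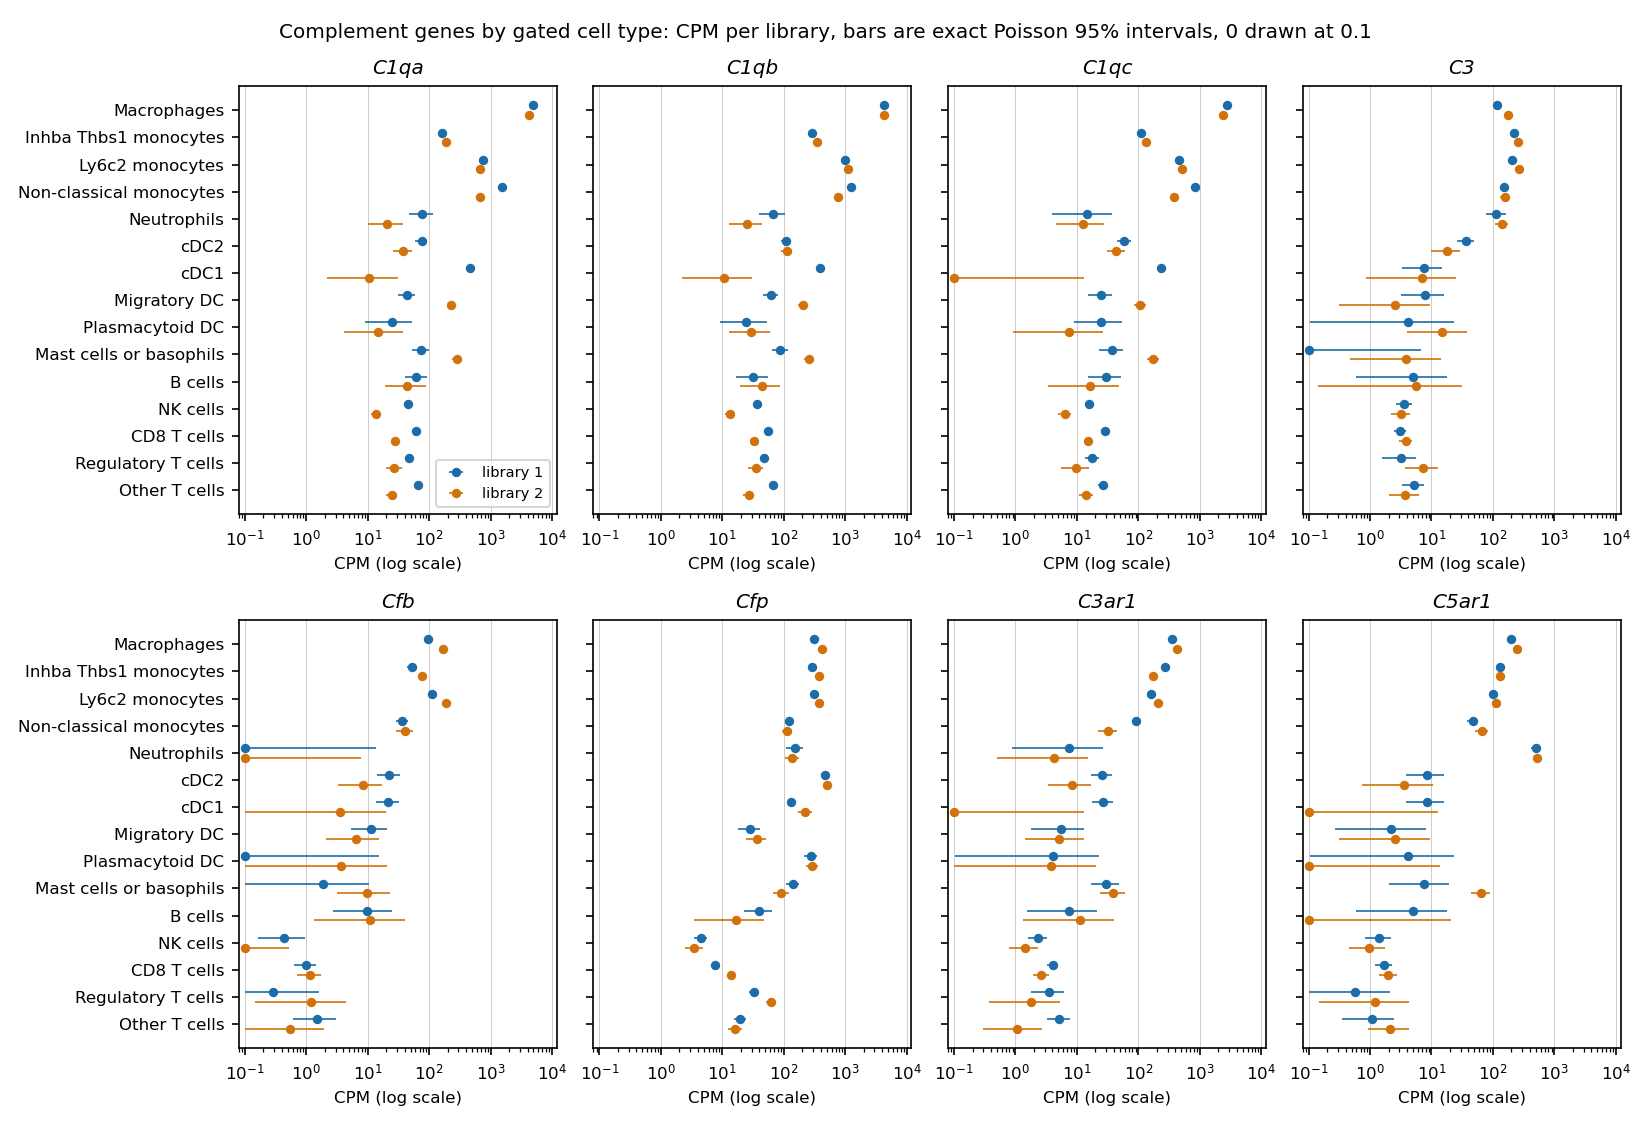
Levels of the 8 complement genes in 15 gated cell types, in CPM on a log axis, with library 1 above library 2 in each row and exact Poisson 95% intervals as bars; a level of 0 is drawn at 0.1. The 3 C1q genes peak in macrophage-gated cells, C3 is higher in both monocyte gates named for their genes than in macrophage-gated cells, Cfp is highest in cDC2 and C5ar1 in neutrophils.

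Macrophage-gated cells were not uniform. The C1q sum had a median of 89.5 UMIs per cell in library 1 and 66 in library 2, the cells at the 25th percentile held 2 and 1 UMIs, and the richest cells held 773 and 1050. No C1q UMI at all was found in 12.95% and 20.2% of these cells. The 3 genes kept together from cell to cell: across 661 and 439 cells thinned to 3000 UMIs, Spearman's rho between C1qa and C1qb was 0.88 and 0.91, and between C1qa and C1qc 0.89 and 0.92. Between C1qa and C3 rho was weak, at -0.18 and -0.17. These are descriptions within libraries, since cells are not replicates.

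The make-up of the C1q transcript pool differed between macrophage-gated cells and the Ly6c2 and Inhba Thbs1 monocytes. C1qb made up 35.8% and 39.4% of C1q UMIs in macrophage-gated cells, against 44.5% and 48.8% in Ly6c2 monocytes and 51.1% and 51.9% in Inhba Thbs1 monocytes. C1qa took the opposite course, at 41.2% and 38.7% in macrophage-gated cells and 29.1% and 28.2% in Inhba Thbs1 monocytes. The C1qc share differed less between the same gates, at 23.0% and 21.9% in macrophage-gated cells and 19.8% and 19.9% in Inhba Thbs1 monocytes. Non-classical monocytes lay nearer the macrophage shares, with C1qb at 34.6% and 42.6% and C1qa at 42.1% and 36.6%. In NK cells C1qb made up 37.4% and 39.8%, C1qa 46.4% and 41.2%, and C1qc 16.2% and 19.03%. The intervals of C1qa (43.7% to 49.1%) and C1qc (14.2% to 18.3%) in NK cells of library 1 did not reach the macrophage shares. In library 2 both intervals, 36.0% to 46.5% for C1qa and 15.1% to 23.5% for C1qc, included them.

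**Figure D2:**
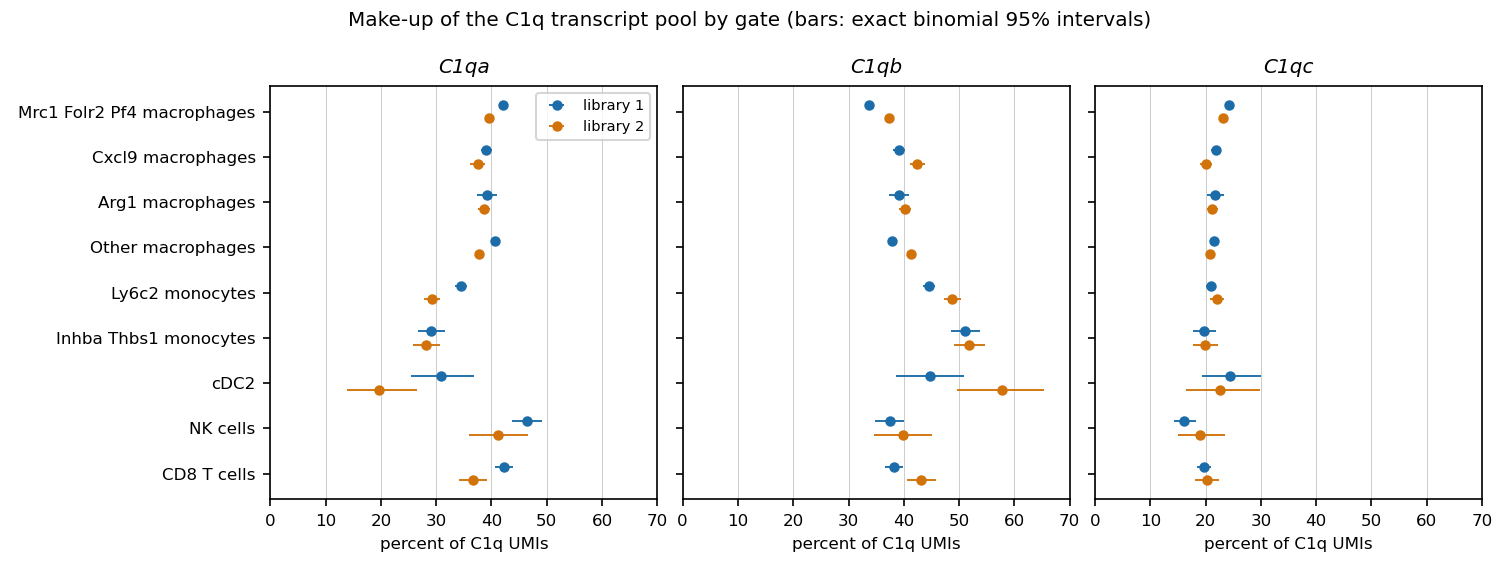
Share of each C1q gene among all C1q UMIs, in percent, for 4 macrophage states, 2 monocyte gates, cDC2, NK cells and CD8 T cells, with library 1 above library 2 and exact binomial 95% intervals. The C1qb share is 51.1% and 51.9% in Inhba Thbs1 monocytes and 33.6% and 37.4% in Mrc1 Folr2 Pf4 macrophages.

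C3, the component on which all pathways converge, did not follow C1q. Among the gates, before macrophages were divided into states, its level was highest in monocytes. It stood at 203 and 271 CPM in Ly6c2 monocytes and 217 and 254 CPM in Inhba Thbs1 monocytes, whose ranges overlapped. Macrophage-gated cells held 117 CPM (109 to 124) in library 1 and 177 CPM (166 to 189) in library 2. The log2 ratio of macrophage-gated cells over Inhba Thbs1 monocytes was -0.90 (-1.05 to -0.74) and -0.52 (-0.68 to -0.36). Non-classical monocytes held 152 and 155 CPM, above macrophage-gated cells in library 1, with a log2 ratio of macrophage-gated over non-classical cells of -0.38 (-0.56 to -0.19), and not told apart from them in library 2. Neutrophils, at 113 and 140 CPM, were not told apart from macrophage-gated cells in either library. C3 was found in NK cells at 3.59 and 3.21 CPM and in CD8 T cells at 3.08 and 3.83 CPM, with a UMI in 2.83% and 2.18% of NK cells against 50.9% and 62.1% of macrophage-gated cells.

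Factor B, the serine protease of the alternative pathway, was found in macrophages and monocytes and was not detected in neutrophils. Cfb stood at 97.7 CPM (91.1 to 105) and 171 CPM (160 to 183) in macrophage-gated cells and at 111 and 188 CPM in Ly6c2 monocytes. Inhba Thbs1 monocytes held less, 51.8 and 77.8 CPM, and non-classical monocytes 36.7 and 40.3 CPM. Neutrophils, which are shallow cells with medians of 2562 and 2617 UMIs, held 0 Cfb UMIs in both libraries, where the intervals reach up to 13.5 and 7.68 CPM. The same neutrophils did hold C3, in 31 and 67 UMIs. NK cells held 6 and 1 UMIs of Cfb in all.

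Properdin transcripts were highest in cDC2 among the gates. Cfp stood at 467 CPM (427 to 509) and 509 CPM (462 to 559) in cDC2, ahead of 316 CPM (304 to 328) and 428 CPM (410 to 446) in macrophage-gated cells. The log2 ratio of macrophage-gated cells over cDC2 was -0.56 (-0.70 to -0.42) in library 1 and -0.25 (-0.40 to -0.10) in library 2. Ly6c2 monocytes at 313 and 374 CPM and Inhba Thbs1 monocytes at 285 and 380 CPM lay near the macrophage level. The log2 ratio of macrophage-gated cells over Inhba Thbs1 monocytes was 0.15 (0.03 to 0.27) and 0.17 (0.05 to 0.29), and over Ly6c2 monocytes 0.01 (-0.09 to 0.12) and 0.19 (0.07 to 0.32). Other dendritic cells held less than cDC2, with 133 and 225 CPM in cDC1, 27.9 and 36.1 CPM in migratory dendritic cells, and 279 and 291 CPM in plasmacytoid dendritic cells, of which there were 24 and 25. Among lymphocytes, regulatory T cells held 32.7 and 62.2 CPM of Cfp, against 7.59 and 13.6 CPM in CD8 T cells and 4.47 and 3.49 CPM in NK cells. B cells held 39.4 and 16.7 CPM, on 16 and 3 UMIs, and other T cells 19.5 and 16.4 CPM. A Cfp UMI was found in 7.88% and 10.6% of regulatory T cells and in 4.45% and 4.73% of CD8 T cells. Cd209a, the marker of the cDC2 gate, moved with Cfp there, at 25.8 and 69.5 CPM in regulatory T cells against 2.87 and 1.86 CPM in CD8 T cells, and its part in the Cfp level was not tested.

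The receptors divided the myeloid cells. C3ar1 was highest in macrophage-gated cells, at 349 CPM (337 to 362) and 424 CPM (407 to 442), and was near the floor in neutrophils, with 2 UMIs in each library. C5ar1 was highest in neutrophils, at 498 CPM (418 to 589) and 521 CPM (458 to 589), and second in macrophage-gated cells, at 194 CPM (184 to 203) and 246 CPM (232 to 260). The log2 ratio of macrophage-gated cells over neutrophils for C5ar1 was -1.37 (-1.62 to -1.10) and -1.09 (-1.28 to -0.88). Both receptors were found together in 61.6% and 66.2% of macrophage-gated cells. In NK cells C3ar1 stood at 2.34 and 1.42 CPM and C5ar1 at 1.39 and 0.94 CPM.

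Macrophage-gated cells were divided further by marker UMIs. Cells with 10 or more UMIs of Mrc1, Folr2 and Pf4, markers of tissue-resident interstitial macrophages, numbered 151 and 84. Cells with 10 or more Cxcl9 UMIs, an interferon-induced chemokine, numbered 63 and 56, and cells with 5 or more Arg1 UMIs, the gene of arginase, 33 and 56. The other 417 and 245 cells served for comparison. Cells that met more than 1 of these rules were placed in the order Arg1, Mrc1, Cxcl9. Pairs of rules were met 63 and 59 times, with a cell that met every rule counted once for each pair.

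Mrc1 Folr2 Pf4 macrophages were rich in C1q and poor in C3. C1q in sum stood at 18220 and 20074 CPM in them, against 8753 and 6629 CPM in the other macrophages, with log2 ratios of 1.06 (1.04 to 1.08) and 1.60 (1.57 to 1.63). All 3 C1q genes were found in 96.7% and 91.7% of these cells. C3 stood at 58.2 and 93.4 CPM against 120 and 188 CPM, with log2 ratios of -1.05 (-1.31 to -0.79) and -1.002 (-1.30 to -0.72). Cfp was higher by 0.35 (0.23 to 0.47) and 0.59 (0.44 to 0.73) on the log2 scale, and C5ar1 by 0.54 (0.38 to 0.69) and 0.81 (0.62 to 1.00). C3ar1 was higher by 0.28 (0.16 to 0.39) and 0.46 (0.32 to 0.61). Cfb was lower in library 1, at -0.49 (-0.74 to -0.26), and not told apart in library 2, at -0.05 (-0.30 to 0.18).

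Cxcl9 macrophages had the opposite profile for C3. They held 296 and 266 CPM of it, against 120 and 188 CPM in the other macrophages, with log2 ratios of 1.30 (1.07 to 1.52) and 0.51 (0.25 to 0.76). Cfb was higher by 0.44 (0.12 to 0.73) and 0.30 (0.01 to 0.57) on the same scale, and C3ar1 lower, at -0.31 (-0.53 to -0.10) and -0.24 (-0.47 to -0.03). C1q in sum was higher by less than in Mrc1 Folr2 Pf4 macrophages, at log2 ratios of 0.20 (0.17 to 0.24) and 0.28 (0.24 to 0.33). In Cxcl9 macrophages C3 and C1q were thus both higher than in the other macrophages. Their C3 level in library 1 was also above the 203 CPM of Ly6c2 and 217 CPM of Inhba Thbs1 monocytes. In library 2 it lay between the 271 CPM and 254 CPM of these monocytes.

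Arg1 macrophages were rich in both receptors, a trait shared with Mrc1 Folr2 Pf4 macrophages. C3ar1 stood at 522 and 577 CPM in them, against 323 and 368 CPM in the other macrophages, and C5ar1 at 319 and 341 CPM, against 163 and 192 CPM. The log2 ratios were 0.70 (0.48 to 0.90) and 0.65 (0.47 to 0.82) for C3ar1 and 0.97 (0.69 to 1.24) and 0.83 (0.59 to 1.06) for C5ar1. Cfp was also higher, at 0.35 (0.09 to 0.59) and 0.43 (0.24 to 0.61). Cfb was lower, at -0.89 (-1.59 to -0.32) and -0.38 (-0.73 to -0.05). C1q in sum went opposite ways in the libraries, at -0.27 (-0.33 to -0.22) in library 1 and 0.80 (0.76 to 0.84) in library 2, on 33 and 56 cells.

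Levels were also read in 5 bins of Apoe UMIs per cell over all macrophage-gated, Ly6c2 and Inhba Thbs1 cells. Bins below 20 Apoe UMIs held only cells that met the Ly6c2 or Inhba Thbs1 monocyte minimums. Bins from 20 up held the macrophage-gated cells, which needed no such minimum. The rule of entry thus changes at 20, and low-Apoe cells with macrophage markers but neither monocyte minimum were left out. From 0 to 4, 5 to 19, 20 to 49, 50 to 99 and 100 or more Apoe UMIs, C1q in sum stood at 1108, 2211, 6255, 9330 and 16020 CPM in library 1. The same bins held 923, 2060, 4666, 8558 and 17462 CPM in library 2. The top bin exceeded the bottom bin 14.5 times and 18.9 times. C3 ran the other way, at 205, 216, 164, 135 and 84.4 CPM in library 1 and 267, 256, 223, 179 and 139 CPM in library 2. Both receptors were higher in every next bin: C3ar1 reached 382 and 521 CPM in the top bin, against 179 and 156 CPM in the bottom bin, and C5ar1 213 and 279 CPM against 106 and 78.9 CPM.

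Cfb and Cfp showed no steady course over the bins. Cfb stood at 67.5, 119, 114, 108 and 84.9 CPM over the bins in library 1 and at 121, 140, 157, 189 and 173 CPM in library 2. Cfp in the top bin was above the bottom bin by a log2 ratio of 0.08 (-0.03 to 0.19) in library 1, an interval that includes 0, and 0.36 (0.23 to 0.50) in library 2. The C1qb share of C1q UMIs was 44.4%, 46.5%, 40.7%, 37.3% and 34.5% in library 1 and 52.1%, 48.2%, 43.2%, 41.3% and 38.1% in library 2.

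Cells of the top bin were also deeper, with medians of 14501 and 13207 UMIs against 8526 and 8968 in the bottom bin. The same gated cells, chosen by the same rules of entry, were also ordered by the share of Apoe among their UMIs. They were cut into 5 bins of equal size, where depth differed less, at 11205 and 10448 against 9031 and 9201 UMIs. C1q in sum then stood at 15611 and 16241 CPM in the top bin and 1142 and 1001 CPM in the bottom bin. C3 stood at 84.6 and 157 CPM in the top bin and 215 and 245 CPM in the bottom bin.

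**Figure D3:**
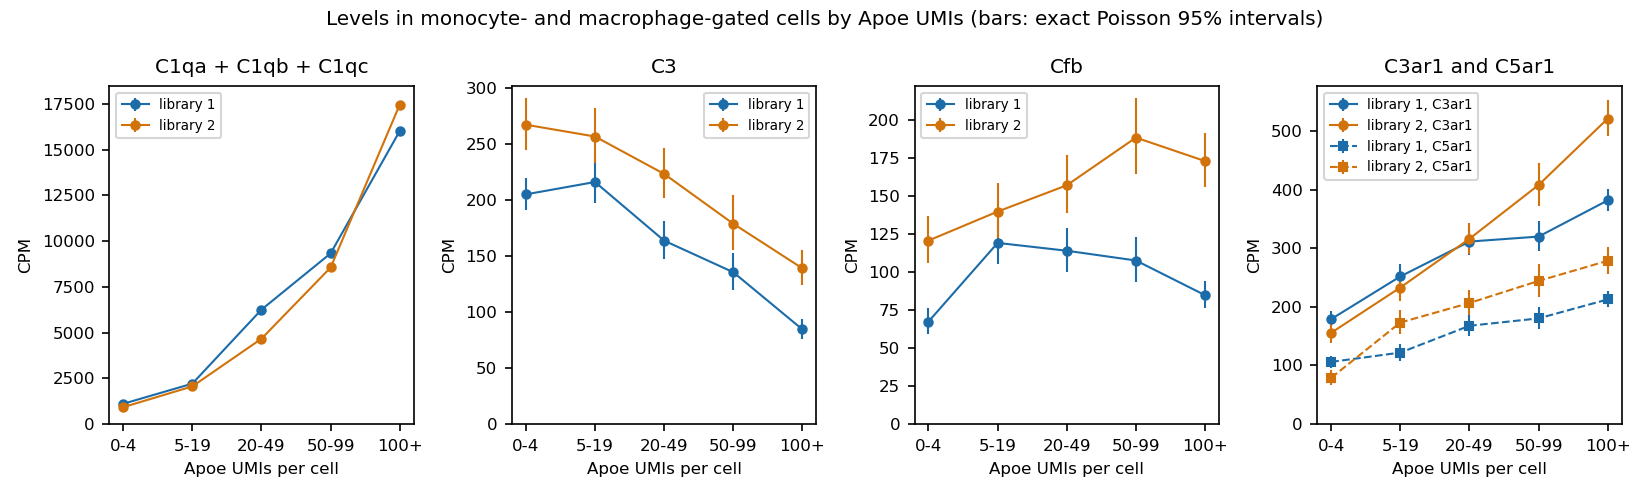
CPM of C1q in sum, C3, Cfb and the 2 receptors in macrophage- and monocyte-gated cells, by Apoe UMIs per cell, with exact Poisson 95% intervals. C1q climbs to 16020 and 17462 CPM in the top bin of library 1 and library 2 while C3 declines to 84.4 and 139 CPM.

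Between libraries, 2 of the 8 genes in macrophage-gated cells lay beyond a ratio of 1.5, both lower in library 1. Over all 9629 genes with at least 50 UMIs in that gate, 8.80% lay beyond 1.5 in either direction with 4.88% higher and 3.92% lower in library 1. The median log2 ratio of library 1 over library 2 was -0.31 over the 8 genes and -0.01 over all genes. The 2 genes were Cfb, at 97.7 and 171 CPM, with -0.81 (-0.95 to -0.67), and C3, at 117 and 177 CPM, with -0.60 (-0.73 to -0.47). C3 lies close to the limit of 0.58 on the log2 scale and was within it at -0.58 in thinned cells, -0.56 scaled without mitochondrial and ribosomal protein genes and -0.54 with a minimum of 10 Apoe UMIs.

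The other members differed less. Cfp had a log2 ratio of -0.44 (-0.52 to -0.36), C5ar1 -0.34 (-0.45 to -0.24) and C3ar1 -0.28 (-0.36 to -0.20). C1qa was higher in library 1 by 0.21 (0.19 to 0.24), while C1qb had -0.01 (-0.04 to 0.01), and C1q in sum had 0.12 (0.11 to 0.14). The direction for C1q in sum and C1qa depended on the gate: with Ms4a7 in place of Apoe they were -0.12 and -0.043.

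Counts of members beyond 1.5 are read against the share of all genes beyond it in the same gate. They were 2 of 8 beside 11.6% in Inhba Thbs1 monocytes, 1 of 8 beside 7.43% in Ly6c2 monocytes and 4 of 8 beside 8.63% in non-classical monocytes, where the 4 were the C1q genes and C3ar1. In the non-classical monocytes with fewer than 20 Apoe UMIs, C1q in sum was 654 and 497 CPM, against 3590 and 1826 CPM in the whole gate, and the 5 richest cells held 40.2% and 79.0% of the gate's C1q UMIs. Barcodes with T cell and macrophage markers gave 2 of 8 beside 5.83%. Among macrophage states, the counts were 2 of 8 beside 9.84% for Mrc1 Folr2 Pf4 macrophages, 0 of 8 beside 11.1% for Cxcl9 macrophages, 5 of 8 beside 18.3% for Arg1 macrophages and 2 of 8 beside 10.1% for the others. NK cells gave 3 of 5 members with 50 UMIs, beside 5.38%, and CD8 T cells 5 of 7, beside 7.76%. The median log2 ratio of the members was -0.27 in Inhba Thbs1 monocytes, -0.23 in Ly6c2 monocytes and 0.39 in non-classical monocytes, against -0.09, -0.04 and -0.02 over all genes.

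Beyond the macrophage gate, Cfb was lower in library 1 in all 7 myeloid groups compared, that is 4 macrophage states and 3 monocyte gates, with log2 ratios of -1.21 to -0.14 and intervals below 0 in 6. C5ar1 was lower in 7 of 7, with intervals below 0 in 3. C3 and Cfp were each lower in 6 of 7, with intervals below 0 in 5 and 6. These groups share libraries, so they are not independent repeats. The C1q sum was lower in library 1 in 4 of the 7 groups and higher in 3, from -0.67 to 0.97. In neutrophils, C5ar1 at 498 and 521 CPM had a log2 ratio of -0.06 (-0.38 to 0.24), a difference too small to detect on 136 and 250 UMIs.

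C3ar1 did not keep 1 direction. In Inhba Thbs1 monocytes its level was 267 and 176 CPM, with a log2 ratio of 0.61 (0.42 to 0.80) beside -0.28 in macrophage-gated cells. In non-classical monocytes it was 90.03 and 31.7 CPM, with 1.49 (0.97 to 2.09) on 196 and 33 UMIs. Among lymphocytes, C1q in sum was higher in library 1 in NK cells, at 1.55 (1.38 to 1.73), and in CD8 T cells, at 0.97 (0.88 to 1.06). The part of transcripts from outside the cell in these lymphocyte values was not tested.

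**Figure D4:**
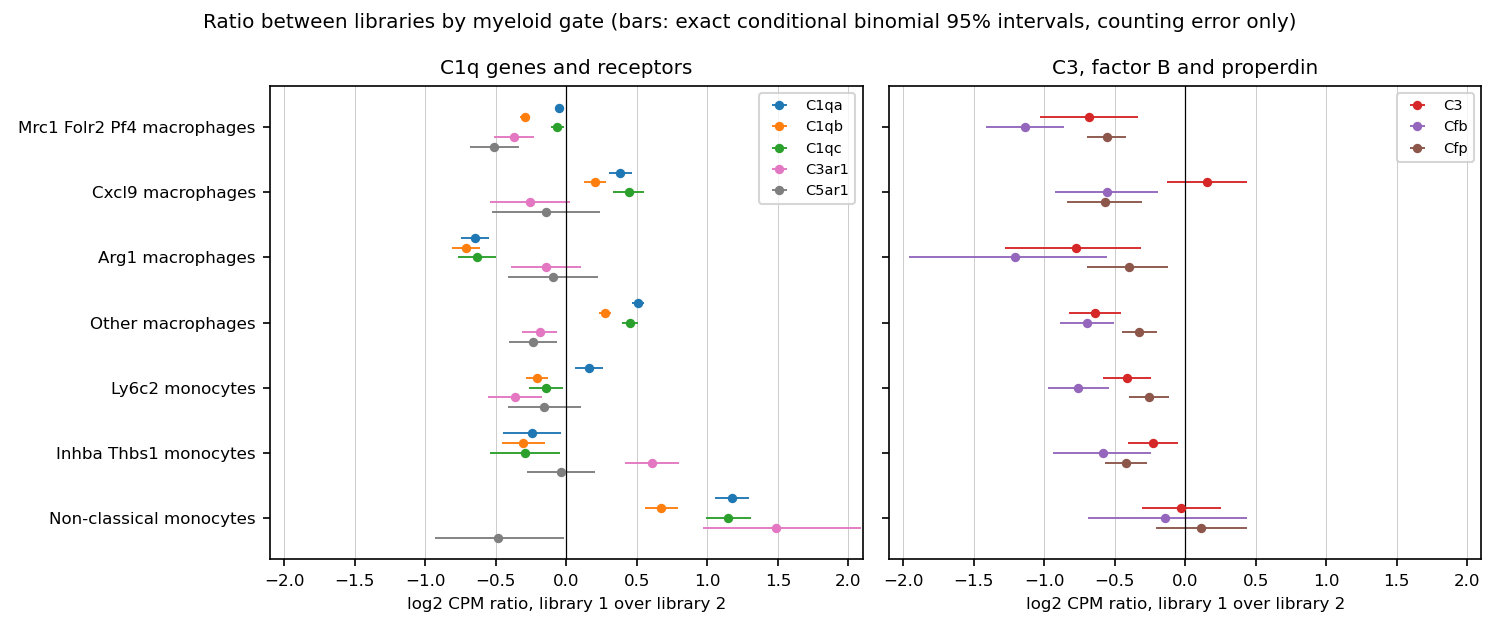
Log2 CPM ratio of library 1 over library 2 for the 8 genes in 4 macrophage states and 3 monocyte gates, with exact conditional binomial 95% intervals. Cfb points lie left of 0 in all 7 groups, whereas C1q and C3ar1 points fall on both sides.

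The 8 genes belong to a list of 56 complement genes, of which 44 had a UMI in the kept cells and 18 reached 50 CPM in a gate of at least 50 cells. Over all 55401 genes of the matrix, 26909 had a UMI in the kept cells. Leaving out symbols that occur more than once, 5759 genes reached 50 CPM in such a gate. Of the terminal pathway, which builds the membrane attack complex, 4 of 6 genes were detected and 0 reached 50 CPM. Most genes of the matrix did not reach that level either, so the 0 is not read as a result about these 6. Partners of C1q in the classical pathway were sparse: C1ra had 289 UMIs in all kept cells, C1s1 19, C2 83 and C4b 596. Hc, the gene of C5, had 20. Cfd, the protease that cleaves factor B, and Vsig4, a complement receptor of resident macrophages, had 0.

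Receptors and regulators made up the rest of the 18. Itgam, a subunit of complement receptor 3, stood at 320 and 483 CPM in macrophage-gated cells and was highest in Inhba Thbs1 monocytes, at 432 and 488 CPM. Itgb2, its partner subunit, was highest in non-classical monocytes, at 333 and 379 CPM, as was Lrp1, a scavenger receptor, at 239 and 229 CPM. Itgax stood at 113 and 77.1 CPM in cDC2 and 80.5 and 95.8 CPM in neutrophils, and Cd93 at 137 and 172 CPM in macrophage-gated cells and 163 and 146 CPM in mast cells or basophils. C5ar2, a further C5a receptor, was highest in neutrophils, at 47.6 and 62.5 CPM, on 13 and 30 UMIs.

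B cells led for Cd55, which speeds the decay of convertases, at 674 and 533 CPM, and for Cr2, the receptor of C3d, at 88.6 and 72.2 CPM on 36 and 13 UMIs. C1qbp had no one leading gate, with 76.3 and 128 CPM in B cells and 115 and 118 CPM in NK cells. Cr1l, a mouse membrane regulator, was highest in NK cells, at 106 and 99.5 CPM. Of the 12 other listed genes with 50 UMIs in macrophage-gated cells, 1 was beyond 1.5 times higher in library 1, Itgax at a log2 ratio of 0.64, and 2 were beyond it lower, among them Itgam at -0.59. That is 3 of 12 beside the 8.80% of all genes.

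The genes whose levels followed each member most closely were ranked over 28 profiles, 14 gates in 2 libraries, by Pearson's r of log2(CPM + 1) among 5759 genes. The profiles share libraries, and gate genes also define the gates. For C1qa these were C1qc (0.99), C1qb (0.98), Ms4a7 (0.93), Trem2 (0.92) and Mmp14 (0.89). For C3 they were Klra2, Adssl1, Prdx5, Igsf6 and Alas1, from 0.96 to 0.95, none of them on the C1qa list. For C3ar1 they included Ctsc, Msr1, Trem2 and Grn, from 0.95 to 0.92, and for Cfb Ctsc, Myof, Ms4a6d and Mmp14, from 0.97 to 0.93. Cfp was followed by Gsn, Atp6ap2, Gm2a, Cd68 and Alox5ap, from 0.97 to 0.92. C5ar1 was followed by Fpr2, a formyl peptide receptor of neutrophils, at 0.94, then Fcgr4, Fth1, Sirpb1c and Rab20, down to 0.92.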

How the data were processed

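Single-cell 3′ libraries were counted with Cell Ranger 6.1.2 on build mm10, per the submitters' processing notes. The authors deposited 1 matrix of raw UMI counts, 55401 genes by 15001 barcodes, from 2 libraries; the annotation release, and whether depth was equalised between libraries, were not given in the sources used here. The filter retained barcodes from 500 detected genes up, provided mitochondrial transcripts made up no more than 10% of their UMIs. No doublet caller was run; barcodes with at least 5 Cd3 UMIs and at least 5 of macrophage markers that include Fcgr1 formed a gate of their own. UMIs were summed per gate and library and scaled to the gate's total (CPM). For log2 ratios, 0.5 UMI was added to each sum; a gene entered with 50 UMIs over the pair of libraries. Intervals were exact Poisson, Clopper-Pearson or conditional binomial; cells are not replicates, so they cover counting error only. This calculation was checked on simulated counts. Shares were also read after random thinning of cells to 3000 UMIs, which 567 and 456 cells did not reach. Members and lists were chosen with earlier results of these data known, and gate minimums after marker levels had been seen. All 8 members are named, as are listed complement genes at 50 CPM or more in a gate of at least 50 cells, with others by count, pathway partners with their UMIs after their values were seen, and, for 6 of the members, those among the 5 most like genes that can be given; some items are not reported here. Python 3.11.15, numpy 2.4.6, pandas 2.3.3 and scipy 1.17.1 were used.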

Additional observations from a re-analysis of the deposited data

Results flagged for a closer look

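C3ar1 differed in direction between gates, a difference that was not itself tested. Its log2 ratio of library 1 over library 2 was 0.61 in Inhba Thbs1 monocytes, 1.49 in non-classical monocytes and 0.61 in CD8 T cells, against -0.28 in macrophage-gated cells. In CD8 T cells the level was 4.02 and 2.63 CPM, close to that of NK cells at 2.34 and 1.42 CPM. In non-classical monocytes with fewer than 20 Apoe UMIs, C3ar1 stood at 31.4 and 11.05 CPM. These levels rest on fewer UMIs than the 196 and 33 of the whole gate and have no interval, so they do not show whether the difference holds there.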

How the results depend on the processing

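The C1q log2 ratio of macrophage-gated over NK cells was 6.94 in library 1 and 8.37 in library 2. It was 7.17 and 8.73 with gate minimums doubled, 6.52 and 7.75 with cells thinned to 3000 UMIs, 6.71 and 8.14 scaled without mitochondrial and ribosomal protein genes, and 6.85 in library 1 with no UMI of another lineage allowed. Gates chosen after seeing the data gave 7.17 and 8.84 (Ms4a7 in place of Apoe), 7.16 and 8.75 (50 Apoe UMIs) and 6.74 and 8.17 (10 Apoe UMIs). The number of members beyond 1.5 between libraries, 2, was 1 when thinned, when scaled without those genes and with 10 Apoe UMIs. The C1q ratio of library 1 over library 2, 0.12, was 0.025 with minimums doubled, 0.027 with no UMI of another lineage, 0.092 thinned and 0.16 rescaled. It turned to -0.12 with Ms4a7 and -0.034 with 50 Apoe UMIs, and with Ms4a7 C1qa was -0.043 and C1qc -0.060. C3, Cfb, Cfp and both receptors kept their direction under every alternative run. The causes were not tested. No paired analysis was possible because each kind of sample had 1 library. No replicate could be left out for the same reason.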
